A study of Mus musculus with 8 samples.

Results

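The 10 genes described here are 8 cathepsins (Ctsb, Ctsc, Ctsd, Ctsh, Ctsl, Ctss, Ctsw and Ctsz) and 2 cystatins (Cst3 and Cst7), chosen by name from the 24405 genes listed in the count tables of 8 mouse libraries. All 10 were present in every table. Their levels were taken as unique molecular identifier (UMI, a barcode that marks 1 captured transcript) counts per 1000000 UMIs (CPM), pooled per library over all cells that passed a gate. Cell types were set by marker genes that include none of the 10.

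The libraries came from a Microwell-seq survey, a method that captures single cells in small wells, of immune cells in mouse organ transplantation. Hearts, livers and kidneys of BALB/c mice were placed in C57BL/6 recipients without immunosuppression, and cells were taken on day 7. The heart and the kidney were grafted at another site with the recipient's own organs left in, whereas the liver took the place of the recipient's liver. Peripheral blood mononuclear cells (PBMC), lymphocytes isolated on a Ficoll gradient from the graft (tissue-infiltrating lymphocytes, TIL) and cells of the dissociated graft (PC, parenchymal cells) were sequenced separately.

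The libraries were heart PBMC, heart TIL, liver PC, liver PBMC, liver TIL, kidney PC, kidney PBMC and kidney TIL, with 1 library each. Heart PC was not analysed here. The labels describe the animals as male BALB/c mice of 8 weeks, they name no library as coming from an ungrafted mouse, and every group shares the allograft, the donor strain and the day. A pair of recipients per organ was used, how their cells were pooled is not stated in the sources used here, and donor and recipient cells were not told apart. The 3 organs therefore stand in for replicates of a compartment. For TIL against PBMC without a block, p-values measure the spread between these libraries, which may be technical. Where library was a block, they measure how unequal the differences between cell types were from library to library. An exception is the test of whether TIL against PBMC was unequal in 2 cell types. Its spread was shared by all genes, so that its p-values do not measure that of a single gene. Libraries of an organ share its pair of recipients, so that the 8 libraries are not 8 independent replicates.

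Cathepsins are proteases of the lysosome. Most are cysteine proteases of the papain family, Ctsd is an aspartic protease, and together they degrade proteins taken up by phagocytes, trim antigens and the invariant chain for MHC class II, and activate other proteases. Cystatins are small proteins that block the papain-like cathepsins: cystatin C (Cst3) is secreted by many cells, and cystatin F (Cst7) is made by leukocytes and acts on the cathepsins inside their own vesicles. In lymphocytes that kill other cells, cathepsin C cuts the propeptides from the granzymes in the cytotoxic granule.

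The genes lie on 7 chromosomes (GENCODE M21 annotation of GRCm38). Among the endopeptidases, which cut within a chain, Ctsb spans chr14:63122462-63145923 (plus strand), Ctsd chr7:142375911-142388038 (minus), Ctsl chr13:64359337-64370890 (minus) and Ctss chr3:95526786-95556403 (plus). Of the exopeptidases, which remove residues from an end, Ctsc spans chr7:88278085-88310888 (plus), Ctsh chr9:90054152-90076089 (plus) and Ctsz chr2:174427493-174439039 (minus). Ctsw, a lymphocyte cathepsin, spans chr19:5465043-5468507 (minus). The inhibitors Cst3 at chr2:148871722-148875692 (minus) and Cst7 at chr2:150570415-150578944 (plus) lie on the chromosome of Ctsz. Ctsb, Ctsc, Ctsd, Ctsl, Ctss, Ctsw and Ctsz overlap another annotated gene, among them Fdft1 for Ctsb, Fibp for Ctsw and Nelfcd for Ctsz. Whether the authors' counting used strand is not stated in the sources used here, so reads of such overlaps cannot be told apart. For Ctsd, Ctsl and Ctss an overlapping gene, Gm49369 and the pseudogenes Gm49230 and Hmgb1-ps5, lies on the same strand.

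The promoters of 3 genes are shown, as the 250 bases before the gene's start in RefSeq (GRCm38.p6, plus strand for each). Of these genes Ctss and Ctsc were higher in macrophages than in CD8+ T cells, and Cst7 was lower. Capitals mark the letters that matched a motif searched on both strands. These are the TATA box (TATAAA) and the interferon-stimulated response element (GAAA and GAAA with any 2 bases between) for Ctss at chr3:95526536-95526785, the ETS core (GAGGAAG, here on the reverse strand) for Ctsc at chr7:88277835-88278084, and the Runx motif (TGTGGT) for Cst7 at chr2:150570165-150570414.
Ctss: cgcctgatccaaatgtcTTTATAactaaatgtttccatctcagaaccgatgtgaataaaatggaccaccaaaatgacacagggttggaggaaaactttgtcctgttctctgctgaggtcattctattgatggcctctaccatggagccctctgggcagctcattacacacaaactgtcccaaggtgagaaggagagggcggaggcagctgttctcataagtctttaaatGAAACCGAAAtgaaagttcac
Ctsc: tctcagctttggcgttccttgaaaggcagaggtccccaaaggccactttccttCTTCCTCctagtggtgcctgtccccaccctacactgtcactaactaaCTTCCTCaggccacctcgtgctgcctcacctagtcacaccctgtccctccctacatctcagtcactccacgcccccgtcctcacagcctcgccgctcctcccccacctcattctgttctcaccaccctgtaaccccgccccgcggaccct
Cst7: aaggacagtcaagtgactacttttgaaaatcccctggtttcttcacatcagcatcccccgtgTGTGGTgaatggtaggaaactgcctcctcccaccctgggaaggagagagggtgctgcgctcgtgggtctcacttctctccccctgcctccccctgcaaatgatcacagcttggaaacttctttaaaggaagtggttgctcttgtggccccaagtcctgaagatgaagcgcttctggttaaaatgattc

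Of the 10 genes, 7 had an entry among the RefSeq promoters, and Ctsb, Ctsh and Ctsw had none. In the 7 windows the interferon-stimulated element was found for Ctss alone, 21 bases before its start, against 2.98% of all 32851 windows of that length. This motif was added after the windows had been read. The ETS core occurred 2 times for Ctsc, 197 and 150 bases before the start, and in 10.6% of all windows, and the Runx motif 188 bases before the start of Cst7 and in 14% of all windows. An E-box (CACGTG, 6.02% of windows) was found 245 and 98 bases before the start of Ctsd and 236 bases before that of Ctsl. A CCAAT box (CCAAT, 33.8%) stood 234 bases before the start of Ctsz, the TATA box (12.4%) was matched for Ctss, on the reverse strand 233 bases before its start, and none of the 6 motifs was found for Cst3. These matches describe letters and no binding.

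Of 80000 barcodes with 62080306 UMIs, 47541 were kept as cells, with 500 UMIs or more and a mitochondrial share of no more than 10%. Libraries had 3418722 to 19171264 UMIs and 795 to 10000 such cells, with a median of 581 to 1502 UMIs per cell. Cells with markers of several lineages, 4.34% to 38.8% of a library, were left out. The gates were macrophage (Csf1r, 2114 cells), Kupffer cell, the resident macrophage of the liver (Clec4f or Cd5l, 327 cells), neutrophil (Csf3r, 4346), CD8+ T cell (a Cd3 gene with Cd8a or Cd8b1 and no Cd4, 11220), NK cell (Ncr1 or Klrb1c without Cd3 genes, 407) and B cell (markers that include Cd79a, Cd79b and Ms4a1, 1462). Sums over at least 20 cells were used, and the 3 kidney libraries gave only 22 to 37 macrophages each. The name macrophage stands for the Csf1r gate in every library, blood included, and monocytes were not told apart from macrophages.

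The organ markers went against 2 labels. Summed hepatocyte markers were at 363 CPM in the library labelled heart TIL and 214 in liver PC, but at 2.06 in the library labelled liver TIL, which instead held 118 CPM of cardiomyocyte markers against 2.96 to 25.7 elsewhere. Both are named below by label, and the comparisons of TIL with PBMC, which rest on them most, are given also without them. Pairs of libraries shared 123 to 617 cell barcodes. Pairs among heart PBMC, liver PBMC and the libraries labelled heart TIL and liver TIL shared 423 to 617, all other pairs 123 to 259. Markers of the wrong type were found in every gate: the macrophage marker list summed to 15724 to 32208 CPM in macrophages and to 943 to 12349 CPM in CD8+ T cells, which should lack genes such as Lyz2 and C1qa. Macrophages held all 8 macrophage markers in 5 of the libraries, 7 of 8 in kidney PC, 7 of 8 in heart PBMC, where Ms4a7 was at 0, and 5 of 8 in kidney PBMC, where C1qa, C1qc and Ms4a7 were at 0.

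**Figure D1:**
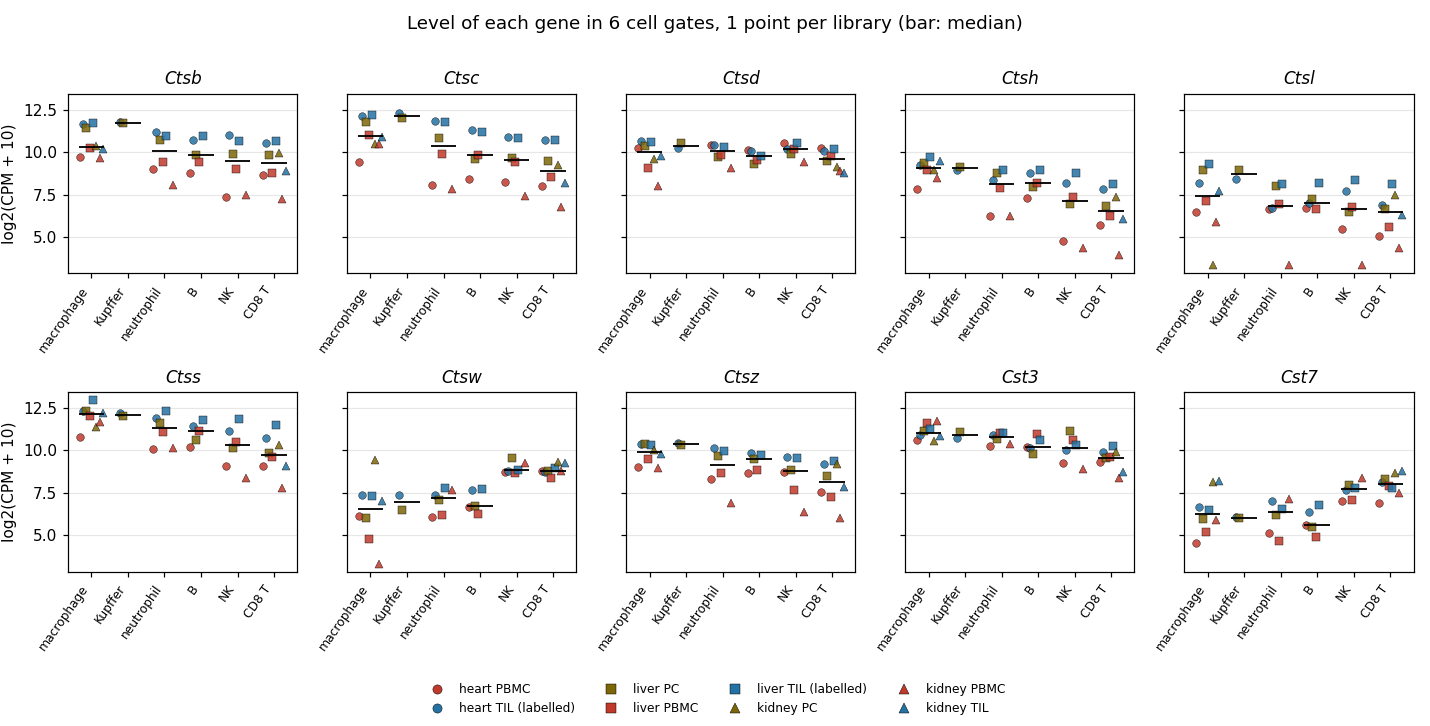
Levels of the 10 genes in 6 cell type gates, as log2(CPM + 10) on the y axis, with 1 point per library of at least 20 cells and a bar at the median. Most cathepsins and Cst3 lie highest in the macrophage and Kupffer gates, Ctsw and Cst7 in the CD8+ T and NK gates, and Ctsd varies little between gates.

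By the test within libraries, macrophages held more RNA of 7 of the cathepsins and of Cst3 than CD8+ T cells, and less of Ctsw and Cst7. Ctsd, Ctsl and Ctsw did not go the same way in every library, and the call of Ctsd was lost under some alternatives, as given below. The share of genes called by edgeR's quasi-likelihood test with libraries as a block was 50.5% of the 3174 genes tested, 26.6% higher and 23.9% lower in macrophages. Of the 10 genes, 8 were higher and 2 lower, with a median log2 fold change of 1.62 against -0.04 over all genes tested. In a sum over cells of a type, more cells expressing a gene and more RNA per cell cannot be told apart.

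Ctss, an endopeptidase that removes the invariant chain from MHC class II in professional antigen-presenting cells, had 1772 CPM in the lowest macrophage sum, heart PBMC, a median of 4495 and 8028 in the highest, the library labelled liver TIL. In CD8+ T cells it ran from 209 CPM in kidney PBMC through a median of 837 to 2907, again in the library labelled liver TIL. Macrophages were higher within each of the 8 libraries, but the ranges overlapped, since CD8+ T cells of the library labelled liver TIL exceeded the macrophages of heart PBMC and kidney PC. The log2 fold change was 2.28 ± 0.20 (SE, adjusted p = 5.00e-11).

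Ctsc, the dipeptidyl peptidase that activates granule serine proteases, had a lowest, median and highest level of 669, 2002 and 4726 CPM in macrophages and of 97.8, 484 and 1703 CPM in CD8+ T cells (log2 fold change 2.13 ± 0.18, adjusted p = 2.82e-11). Ctsh, an aminopeptidase, ran from 217 through 536 to 841 CPM in macrophages and from 5.28 through 85.6 to 267 in CD8+ T cells (2.35 ± 0.22, adjusted p = 1.75e-10). Both were higher in the macrophages of all 8 libraries with overlapping ranges, and the macrophage sum of heart PBMC was the lowest for both.

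Ctsb, which cuts within chains and also removes dipeptides from their end, and Ctsz, a carboxypeptidase, gave smaller differences. Ctsb had 1829 ± 1091 CPM (SD, n = 8) in macrophages and 804 ± 537 in CD8+ T cells, a log2 fold change of 1.37 ± 0.16 (adjusted p = 7.03e-09). Ctsz had 948 ± 352 CPM in macrophages and 344 ± 230 in CD8+ T cells, a log2 fold change of 1.66 ± 0.16 (adjusted p = 1.44e-10). Both were higher in the macrophages of 8 of 8 libraries.

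Ctsl, a broad endopeptidase of the lysosome, was measured with few UMIs in the kidney libraries. Its level in macrophages ran from 0 in kidney PC, where a count of 0 allows up to 206 CPM (3 UMIs), through a median of 165 to 611 in the library labelled liver TIL. In CD8+ T cells it ran from 10.6 through 79.6 to 268 CPM. Macrophages were higher in 7 of 8 libraries, kidney PC being the exception (log2 fold change 1.59 ± 0.25, adjusted p = 2.07e-06).

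Ctsd, the aspartic endopeptidase of the lysosome found in nearly every cell, differed least. It had 1000 ± 482 CPM (SD, n = 8) in macrophages and 803 ± 310 in CD8+ T cells, and was higher in macrophages in 5 of 8 libraries. The exceptions were the 3 PBMC libraries, where CD8+ T cells held 1.01 (heart), 1.63 (liver) and 1.91 (kidney) times the macrophage level. Its log2 fold change of 0.47 ± 0.15 passed the test (adjusted p = 0.0102), but not without the library labelled heart TIL (0.32), without liver PC (0.35), without both doubted libraries (0.30) or without the filter on low counts (0.25, adjusted p = 0.508).

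Cst3 was the only member whose macrophage and CD8+ T cell sums did not overlap, against 2.77% of the genes tested. Its lowest, median and highest levels were 1513, 2089 and 3411 CPM in macrophages and 325, 751 and 1208 CPM in CD8+ T cells. The macrophage level was 1.70 ± 0.21 higher on the log2 scale (adjusted p = 2.70e-08).

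**Figure D2:**
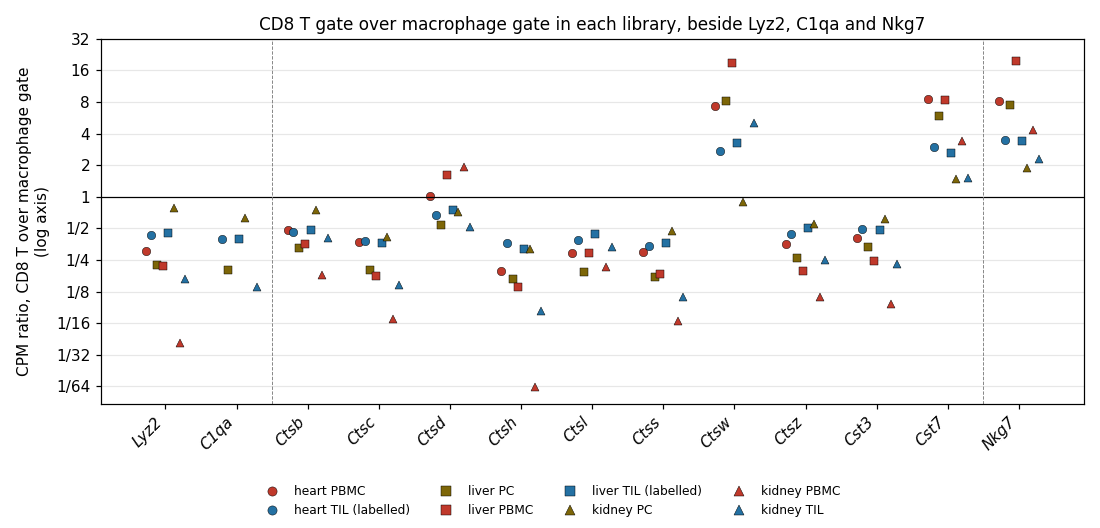
Ratio of the CPM in CD8+ T cells to that in macrophages of the same library, on a log axis, for the members beside Lyz2 and C1qa (macrophage genes) and Nkg7 (a gene of cytotoxic lymphocytes), with 1 point per library. The cathepsins of macrophages lie below 1 at ratios like those of Lyz2, Ctsd lies around 1, and Ctsw and Cst7 lie above 1 beside Nkg7 except for Ctsw in kidney PC.

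The CD8+ T cell values of these genes stood beside those of Lyz2, the lysozyme of myeloid cells. Per library, the CD8+ T cell level of Lyz2 was 0.0403 (kidney PBMC) to 0.788 (kidney PC) of the macrophage level, with a median of 0.265. The medians of this ratio were 0.242 for Ctss, 0.28 for Ctsc, 0.179 for Ctsh, 0.31 for Ctsz, 0.294 for Ctsl, 0.367 for Cst3 and 0.437 for Ctsb. Of these 7, 3 lay below the ratio of Lyz2 in heart PBMC, 4 of 7 in each of the liver libraries and the library labelled heart TIL, 1 of 7 in kidney PBMC, 3 of 7 in kidney TIL and all 6 with a ratio in kidney PC. Lyz2 was also at 0.328 to 0.934 of its macrophage level in neutrophils, and the part of RNA from other cells in the CD8+ T cell values was not tested. C1qa was at 0 in the CD8+ T cells of heart and liver PBMC.

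Between macrophages and neutrophils, 14.8% of the genes tested were called, 3.15% as higher in macrophages and 11.7% as lower. Of the 10 members 3 were called, all higher in macrophages: Ctsc, Ctsh and Ctsb. Neutrophils had 214, 1388 and 3720 CPM of Ctsc as lowest, median and highest of 6 libraries, below the macrophages of the same library in 6 of 6 (log2 fold change 0.79 ± 0.19, adjusted p = 0.0034). Ctsh had 64.2, 269 and 481 CPM in neutrophils (0.89 ± 0.24, adjusted p = 0.0092), and Ctsb 257, 1181 and 2364 CPM (0.50 ± 0.17, adjusted p = 0.0446), also lower in 6 of 6. The ranges of both cell types overlapped for every member, and for all but 0.063% of the genes tested.

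Ctss and Ctsz were higher in macrophages in 6 of 6 libraries without passing the test (0.58 ± 0.21, adjusted p = 0.0578, and 0.44 ± 0.17, adjusted p = 0.0676). Cst3, Ctsl, Ctsd, Ctsw and Cst7 were not called either, at log2 fold changes of -0.58 to 0.49. Without heart PBMC Ctsc alone was called, with Ctsh at 0.79 (adjusted p = 0.0583). Without kidney PC the 5 genes with Ctss and Ctsz were called. Ctsb lost its call without any 1 of heart PBMC, liver PC, liver PBMC, kidney PBMC or the libraries labelled heart TIL and liver TIL (0.45 to 0.54). With overlapping gates the calls of Ctsh (0.41, adjusted p = 0.105) and Ctsb (0.22, adjusted p = 0.358) were lost. The marker lists moved with the gates unevenly: neutrophil markers summed to 35199 to 177166 CPM in the macrophages of the PBMC libraries and to 206 to 7038 CPM in those of the tissue libraries. Their part in these differences was not tested.

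**Figure D3:**
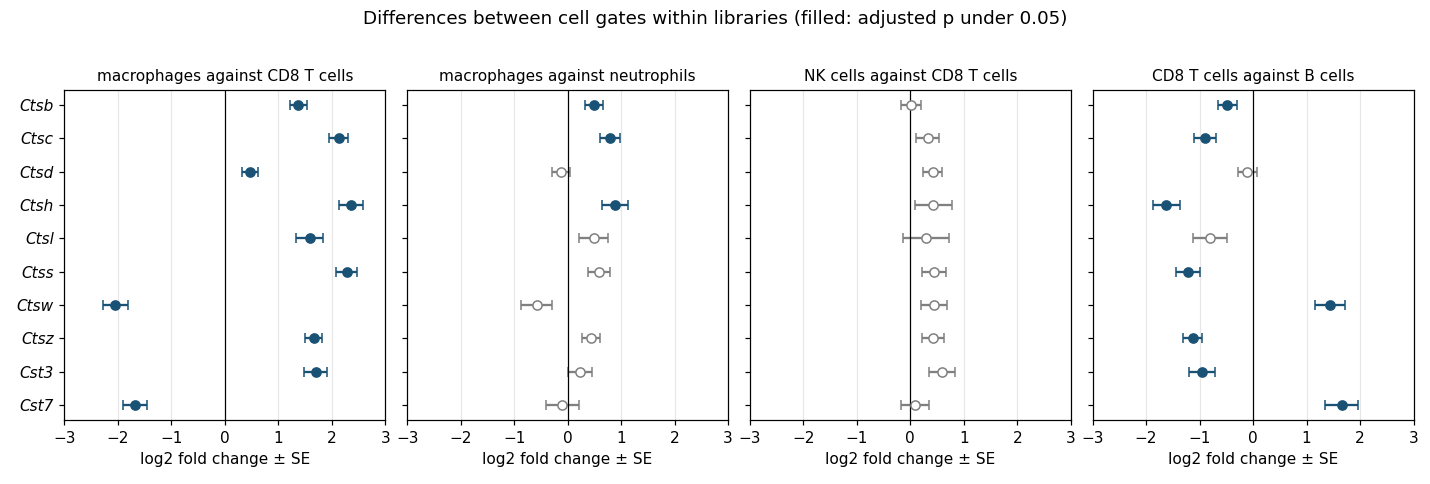
Log2 fold change with its SE of each member in 4 comparisons of cell types, with filled points where the adjusted p of edgeR's test was under 0.05. Macrophages exceed CD8+ T cells for 8 members and fall below them for Ctsw and Cst7, NK cells and CD8+ T cells show no called member, and CD8+ T cells exceed B cells for Ctsw and Cst7 alone.

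B cells, which use cathepsins in presenting antigen, held more of 6 members than CD8+ T cells and less of Ctsw and Cst7. In this comparison 28% of genes were called, 9.11% higher and 18.9% lower in CD8+ T cells. Ctsh showed the largest difference of the 6, with 148 CPM in B cells of heart PBMC, 279 in liver PBMC, 238 in liver PC, and 430 and 491 in the libraries labelled heart TIL and liver TIL (log2 fold change of CD8+ T over B cells -1.62 ± 0.26, adjusted p = 1.82e-05). B cells were higher in 5 of 5 libraries for it and for Ctss, Ctsz, Cst3, Ctsc and Ctsb.

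Ctss in B cells had 1157 CPM in heart PBMC, 2221 in liver PBMC, 1545 in liver PC, and 2792 and 3488 in the libraries labelled heart TIL and liver TIL (-1.21 ± 0.22, adjusted p = 9.65e-05). Ctsz (-1.13), Cst3 (-0.96), Ctsc (-0.90) and Ctsb (-0.48) were lower in CD8+ T cells as well, with adjusted p of 1.46e-05, 0.0027, 0.000777 and 0.0443. Ctsl (-0.80, adjusted p = 0.0554) and Ctsd (-0.11, adjusted p = 0.704) were not called. For Ctsd the CPM was higher in CD8+ T cells in 5 of 5 libraries, with means of 996 and 877 CPM, against the sign of the fitted value, and the fit gave 0.12 with a second marker and 0.27 without the filter on low counts, so that no direction is given. Ctsb lost its call without any 1 of heart PBMC, liver PBMC, kidney PBMC, kidney TIL or the libraries labelled heart TIL and liver TIL (log2 fold change -0.35 to -0.47), and Cst3 without liver PBMC (-0.76). With a second marker the calls of Ctsb (-0.03, adjusted p = 0.976) and Ctsc (-0.65, adjusted p = 0.0817) were lost. Without the filter on low counts those of Ctsb (-0.08), Ctsc (-0.50), Cst3 (-0.56) and Ctsz (-0.74) were, with adjusted p of 0.985, 0.239, 0.148 and 0.0512. The macrophage marker list summed to 6681 to 19072 CPM in B cells, above the CD8+ T cells in each of the 5 libraries (4764 to 10465 CPM), and Lyz2 in B cells was at 0.304 to 0.648 of its macrophage level. The part of this RNA in the B cell values was not tested.

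Ctsw, a cathepsin of NK and CD8+ T cells, had its highest median levels there. CD8+ T cells ran from 321 CPM in liver PBMC through a median of 437 to 621 in kidney PC, and NK cells from 405 in liver PBMC through 446 to 737 in liver PC. Macrophages ran from 0 UMIs in kidney PBMC (3 UMIs would be 148 CPM) through a median of 90.4 to 688 CPM in kidney PC, where 22 cells gave 10 UMIs. Macrophages were thus lower in 7 of 8 libraries and higher in kidney PC (log2 fold change against CD8+ T cells -2.05 ± 0.24, adjusted p = 8.24e-09). B cells, with 93.4 CPM in heart PBMC, 65 in liver PBMC, 95.1 in liver PC, and 191 and 205 in the libraries labelled heart TIL and liver TIL, lay below every CD8+ T cell sum, as 4.76% of genes tested did not overlap in this comparison (1.44 ± 0.28, adjusted p = 0.000211).

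Cst7, the intracellular inhibitor, also had its highest median levels in these lymphocytes. CD8+ T cells ran from 111 CPM in heart PBMC through 251 to 425 in kidney TIL, and NK cells from 121 in heart PBMC through 204 to 317 in kidney PBMC. Macrophages ran from 13.1 CPM in heart PBMC through 66.9 to 284 in kidney TIL and lay below CD8+ T cells in 8 of 8 libraries with overlapping ranges (-1.68 ± 0.22, adjusted p = 1.02e-07). B cells held 38.5 CPM in heart PBMC, 19.3 in liver PBMC, 35.7 in liver PC, and 71.6 and 98.1 in the libraries labelled heart TIL and liver TIL, all below the lowest CD8+ T cell sum (1.66 ± 0.31, adjusted p = 0.000132). The ratio of CD8+ T cells to macrophages had a median of 3.19 for Cst7, 5 for Ctsw and 3.93 for Nkg7, a granule membrane gene.

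No member was called between NK cells and CD8+ T cells. Here 2.9% of genes were called by edgeR (1.39% higher and 1.51% lower in NK cells, 396 genes at an unadjusted p under 0.05) and 0 of the 10 members, and DESeq2 called 74 genes and 0 members. With so small a share of genes called, the count of 0 is near the background. Ctsc, Ctsd, Ctss and Ctsz were higher in NK cells in 6 of 6 libraries, at log2 fold changes of 0.32, 0.42, 0.44 and 0.42 (adjusted p of 0.569, 0.297, 0.429 and 0.377). The log2 fold changes of NK over CD8+ T cells were 0.44 ± 0.24 for Ctsw, 0.09 ± 0.27 for Cst7 (higher CPM in NK cells in 2 of 6 libraries) and 0.60 ± 0.24 for Cst3 (adjusted p of 0.482, 0.957 and 0.288). Genes of other cells moved with these values: Lyz2 in NK cells was at 0.867 (liver PC) to 2.07 (liver PBMC) of its CD8+ T cell level, higher in 5 of 6 libraries, and Cd74, the invariant chain, at 1.31 to 2.79, higher in 6 of 6. Their part in the NK cell values was not tested. The Cst3 level of NK cells in liver PC, 2292 CPM, rested on 1 of 43 cells, which held 103 of 143 UMIs, a cell looked up after the value was seen.

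Over the 5 libraries with all 5 gates, the means of Ctsb, Ctsc, Ctsl, Ctss and Ctsz fell in the order macrophage, neutrophil, B, NK and CD8+ T cell. For Ctsh B cells stood above neutrophils. For Cst3 the means of NK cells (1353 CPM) and B cells (1341 CPM) were close, and without the NK cell of liver PC named above that of NK cells was 1029 CPM, below B cells. Macrophages and NK cells gave 9 of 10 called members (23.7% of genes, Ctsd not called), neutrophils and CD8+ T cells 10 of 10 (54.7%), and neutrophils and NK cells 8 of 10 (32.6%, Ctsd and Ctsl not called). Neighbours in these orders often were not told apart by the test. Neutrophils and B cells gave 0 of 10 called members (18.2% of genes), whereas macrophages exceeded B cells for 6 of 10 (Ctsb, Ctsc, Ctsh, Ctss, Ctsz and Cst3, against 11.9% of genes). NK cells differed from B cells for 5 of 10 (6.77% of genes), with Ctsw and Cst7 higher and Ctsh, Ctss and Ctsz lower. The order of Ctsd was NK, macrophage, neutrophil, CD8+ T and B cell.

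**Figure D4:**
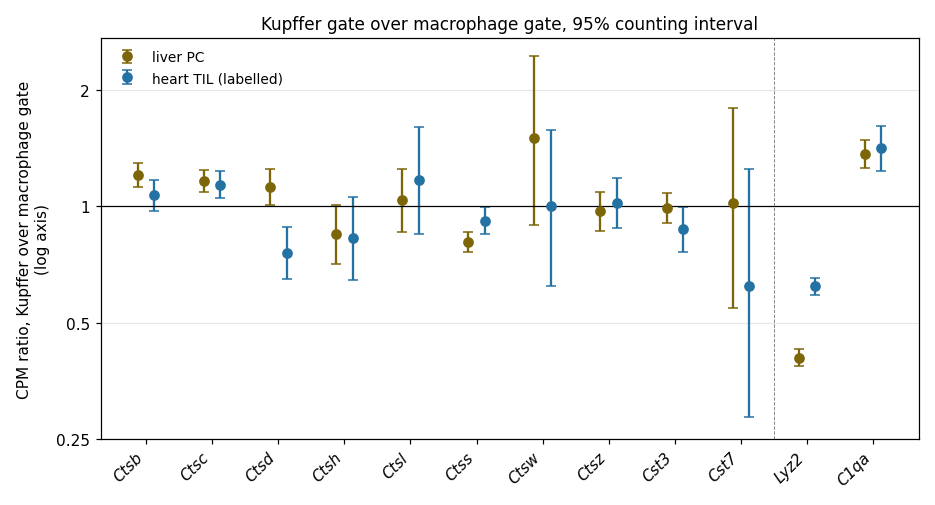
Ratio of the CPM in the Kupffer gate to that in the macrophage gate of the same library, on a log axis, for the members with Lyz2 and C1qa, with 95% intervals for counting error. In liver PC Ctsb, Ctsc and Ctsd lie above 1 and Ctss below, and in the library labelled heart TIL Ctsc lies above 1 and Ctsd, Ctss and Cst3 below.

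Kupffer cells were compared with Csf1r-gated macrophages in liver PC (142 and 583 cells) with no test, since it is 1 library. Intervals are exact 95% ones and cover counting error only. Vsig4, Timd4, Marco, Clec1b, Folr2 and Slc40a1, markers of Kupffer cells that the gate did not use, were higher in the gate in both libraries that held it. Ctsc was at 4064 CPM in Kupffer cells and 3492 in macrophages, a ratio of 1.16 (1.09 to 1.24), and Ctsb at 3373 and 2795 CPM, a ratio of 1.21 (1.12 to 1.30). Ctss was lower in Kupffer cells, at 4229 and 5233 CPM (0.808, 0.76 to 0.859), and Ctsd just higher (1.12, 1.01 to 1.25). The intervals of the other 6 members held 1. Where cells with markers of several lineages were kept (1060 and 2713 cells), the direction of Ctsc turned (0.952, 0.924 to 0.982), the intervals of Ctsb (0.97 to 1.03) and Ctsd (0.949 to 1.04) held 1, and Ctss stayed lower (0.749, 0.729 to 0.77).

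The library labelled heart TIL also held 184 Kupffer cells, beside 410 macrophages. There Ctsc was again higher, at 5032 and 4422 CPM (1.14, 1.05 to 1.23), and Ctss lower, at 4648 and 5061 CPM (0.918, 0.848 to 0.994). Ctsd had the opposite direction (0.759, 0.65 to 0.884), the interval of Ctsb held 1 (1.07, 0.969 to 1.17) and Cst3 was lower (0.871, 0.763 to 0.994). With cells of several lineages kept, the interval of Ctsd held 1 here too (0.993, 0.924 to 1.07) and Ctsb was higher (1.10, 1.05 to 1.16), as Ctsb was with a second marker (1.25, 1.11 to 1.41). The interval of Cst3 held 1 at 1000 UMIs per cell and with a second marker. For comparison Lyz2 was at 0.406 of its macrophage level in the Kupffer cells of liver PC and 0.621 in those of the library labelled heart TIL, and C1qa at 1.37 and 1.41.

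Graft and blood were compared within the Csf1r gate, 3 TIL against 3 PBMC libraries. In blood the name macrophage is that of the gate only, given the low C1qa and high S100a8 levels described below. The test called 8.51% of 2904 genes, 3.51% higher and 4.99% lower in TIL, and 1 of the 10 members, Ctsl, higher in TIL. In PBMC macrophages Ctsl had 78.8 CPM (heart), 128 CPM (liver) and 49.4 CPM (kidney), and in TIL 284 CPM (labelled heart), 611 CPM (labelled liver) and 203 CPM (kidney). The groups did not overlap, though the 49.4 CPM of kidney PBMC are 1 UMI in 22 cells. The log2 fold change was 1.84 ± 0.51 (adjusted p = 0.0435). Without both doubted libraries it was 0.65 (adjusted p = 0.697), and leaving out any 1 library but kidney TIL also ended the call, at log2 fold changes of 1.70 to 2.11, and of 1.203 without the library labelled liver TIL. The call was lost with a second marker (1.30, adjusted p = 0.255), which dropped kidney PBMC, and with overlapping gates (1.21, adjusted p = 0.21) too. Without both doubted libraries, which leaves kidney TIL alone against 3 PBMC libraries and assumes that it varies as they do, no member was called. The log2 fold changes were then 3.15 for Cst7, 1.42 for Ctsw, 0.64 for Ctsh, 0.33 for Ctss, 0.24 for Ctsz, 0.14 for Ctsc, -0.12 for Ctsb, -0.19 for Ctsd and -0.86 for Cst3, with adjusted p of 0.336 or more.

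Ctsw and Cst7 had larger log2 fold changes than Ctsl but were not called. Ctsw was at 59.1, 16.9 and 0 CPM in PBMC macrophages of heart, liver and kidney and at 156, 151 and 122 CPM in TIL (2.01 ± 0.61, adjusted p = 0.0664). Cst7 was at 13.1, 27 and 49.4 CPM in PBMC and at 92.1, 80.7 and 284 CPM in TIL (1.98 ± 0.58, adjusted p = 0.0542). Cst7 did not overlap between the groups. Ctsw did not either with the 0 UMIs of kidney PBMC taken as 0, but that count allows up to 148 CPM, above the 122 CPM (3 UMIs) of kidney TIL. The kidney PBMC values of Cst7 and Ctsl are 1 UMI each in 22 cells, so that their gaps are not secured at this depth either. With Ctsl, Ctsh, Ctss and Ctsz, Ctsw and Cst7 made 6 of 10 members without overlap. All 6 were higher in TIL, against 27.3% of all genes tested without overlap, and 5 of 10 remained without Ctsw. The CD8 T cell marker list in the same macrophage sums stood at 446, 162 and 643 CPM in PBMC and at 1064, 749 and 1663 CPM in TIL, all 5 markers being present in 4 of these 6 sums. Its part in the Ctsw and Cst7 values was not tested.

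Ctsh, Ctss and Ctsz did not overlap between TIL and PBMC macrophages but were not called (log2 fold changes 0.90, 0.88 and 0.87, adjusted p of 0.192, 0.282 and 0.213). Ctsc (1.34), Ctsb (1.30) and Ctsd (0.68) overlapped, and Cst3 was at 2091 ± 363 CPM in TIL and 2696 ± 978 in PBMC (SD, n = 3, log2 fold change -0.43, adjusted p = 0.564). With organ as a block, 5 members were called, all higher in TIL: Ctsl 1.89, Cst7 1.92, Ctsw 2.09, Ctsb 1.23 and Ctsc 1.33, against 11.6% of all genes in that fit. That pairing follows the labels of organs, 2 of which the markers contradict, and with those 2 exchanged 3 members were called, against 10.5% of genes. The Csf1r gate held unlike cells in the compartments: C1qa was at 26.3, 30.3 and 0 CPM in PBMC macrophages and at 1377, 2270 and 2271 in TIL, and S100a8, a neutrophil gene, at 94043, 28861 and 16364 CPM in PBMC and 3503, 2693 and 122 in TIL. The part of this difference in the cathepsin values was not tested.

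**Figure D5:**
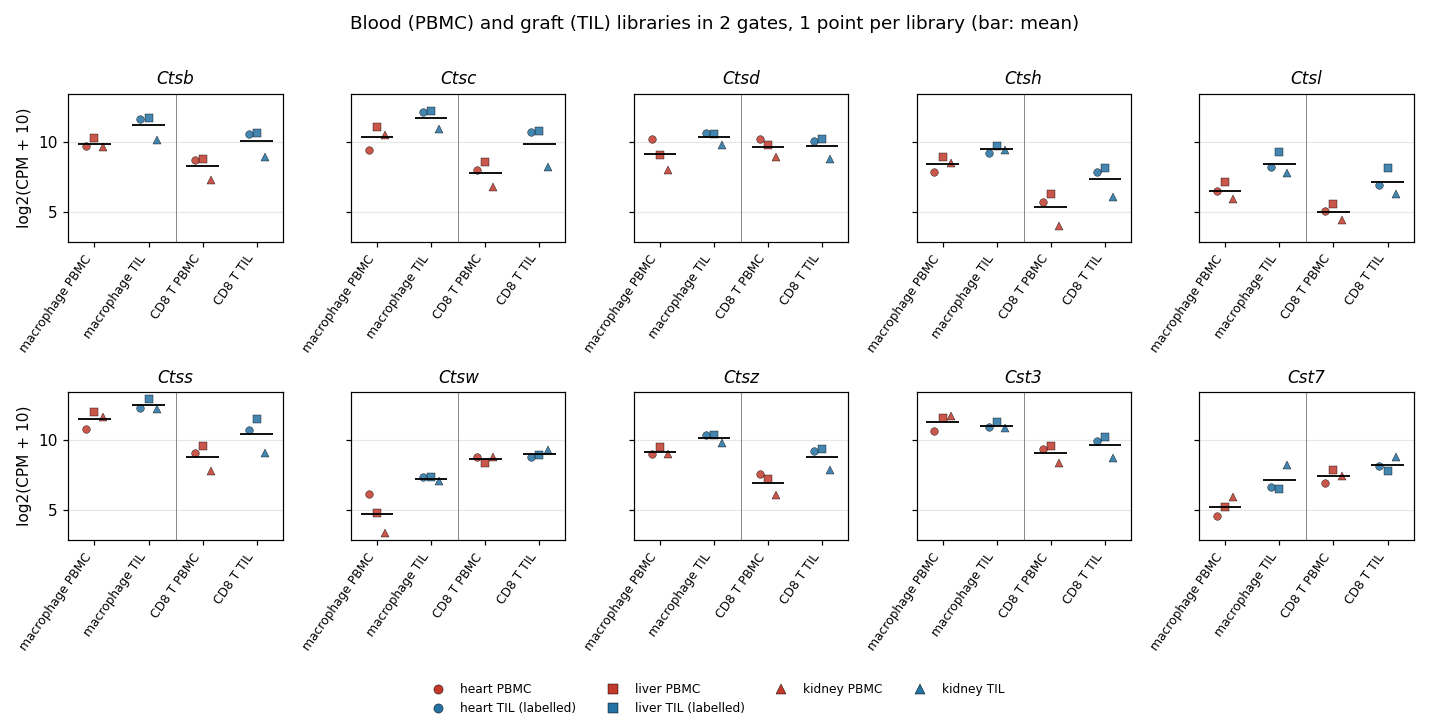
Levels of the 10 genes as log2(CPM + 10) in PBMC and TIL libraries, within macrophages and within CD8+ T cells, with 1 point per library and a bar at the mean of 3. In kidney PBMC macrophages Ctsl and Cst7 rest on 1 UMI each. Ctsl in macrophages is the only member called between the groups, and the 3 TIL points lie above the 3 PBMC points for Ctsh, Ctsl, Ctss, Ctsw (0 UMIs in kidney PBMC, which allow 148 CPM), Ctsz and Cst7 in macrophages and for Ctsb, Ctsl and Ctsz in CD8+ T cells, where 27.3% and 20.6% of all genes tested did not overlap.

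In CD8+ T cells, TIL against PBMC gave calls for 0.0549% of 5468 genes, which is 3 genes, and for 0 of the 10 members, with 671 genes at an unadjusted p under 0.05. DESeq2 called 147 genes and 1 member, Ctsl. Ctsl was at 23, 37.7 and 10.6 CPM in heart, liver and kidney PBMC and at 110, 268 and 67.4 CPM in TIL, without overlap (2.77 ± 0.69, adjusted p = 0.157). Ctsb (1.78) and Ctsz (1.86) did not overlap either, Ctsc (2.30), Ctsh (2.39) and Ctss (1.70) did, and Ctsd (-0.05), Ctsw (0.24), Cst3 (0.49) and Cst7 (0.80) showed smaller values. The 3 members without overlap stand against 20.6% of all genes tested. Without both doubted libraries the log2 fold changes were 1.58 for Ctsl (adjusted p = 0.346), 1.28 for Cst7, 0.73 for Ctsz, 0.67 for Ctsh, 0.50 for Ctsw, 0.42 for Ctsb, 0.16 for Ctsc, -0.55 for Cst3 and -1.08 for Ctsd, Ctss being at 0.000752, and no member was called. With organ as a block, Ctsb, Ctsc, Ctsh, Ctsl, Ctss and Ctsz were called, 6 members against 7.59% of all genes, and 6 members against 5.69% with the 2 organs exchanged.

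Macrophage RNA moved with these values. In the same CD8+ T cell sums C1qa was at 0, 0 and 2.64 CPM in PBMC and at 543, 900 and 317 CPM in TIL, and the macrophage marker list at 4764, 7072 and 943 CPM in PBMC and 10465, 9673 and 3652 in TIL, with 4 to 6 of its 8 markers present in PBMC and all 8 in TIL. Its part in the cathepsin differences of CD8+ T cells was not tested. Ctsw, which CD8+ T cells express above the macrophage level, was at 433, 321 and 433 CPM in PBMC and 424, 491 and 608 in TIL, so that the groups overlapped.

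The difference between TIL and PBMC was unequal in macrophages and CD8+ T cells for Ctsw alone among the 10. Of 4954 genes 1.27% were called, 0.747% with the more positive change from PBMC to TIL in macrophages and 0.525% with the more negative. On the log2 scale the change in macrophages exceeded that in CD8+ T cells by 1.88 ± 0.53 (adjusted p = 0.0389), and without both doubted libraries by 0.60 (adjusted p = 0.924). The call was also lost without any 1 of the 6 libraries other than kidney TIL, at values of 1.33 (without liver PBMC) to 2.78 (without heart PBMC). For the other 9 members the test of unequal change gave adjusted p of 0.254 to 0.85.

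Further cell types were present in fewer libraries. Dendritic cells, gated by Flt3, Xcr1, Clec9a, Cd209a or Siglech with or without Csf1r, held the highest Cst3 levels, 3985 CPM in the library labelled heart TIL, 4094 in liver PC and 5947 in the library labelled liver TIL, where macrophages held 1945, 2232 and 2504 CPM. Proximal tubule cells, the part of the nephron that takes filtered protein back up, held 874 CPM of Ctsl in kidney PC and 595 in kidney TIL, above the macrophages there at 0 and 203 CPM. Stromal cells of the library labelled liver TIL held 742 CPM of Ctsl. These values come from 1 sum each and were not tested.

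Of 10 other cathepsins and papain-like proteases, 7 had at least 50 UMIs, and of 32 other cystatins and inhibitors 19 did. Lgmn, the lysosomal asparaginyl endopeptidase that processes cathepsins, had 1222 CPM in Kupffer cells and 962 in macrophages of the library labelled heart TIL, and 1285 and 798 CPM in those of liver PC. It was higher in macrophages than in CD8+ T cells (log2 fold change 2.17 ± 0.22, adjusted p = 5.31e-10), than in neutrophils (0.93, adjusted p = 0.0029) and in TIL than in PBMC macrophages (3.17, adjusted p = 0.0076). That last call was lost without both doubted libraries (1.36, adjusted p = 0.445) and without liver PBMC (3.11, adjusted p = 0.0509). Ctsa, a carboxypeptidase that protects other lysosomal enzymes, had its highest median of the 6 gates in macrophages (556 CPM). Cstb, an inhibitor in the cytosol, had 1305 CPM in Kupffer cells and 1540 in macrophages of the library labelled heart TIL, and 1056 and 1317 CPM in those of liver PC.

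Of the A-type stefins, intracellular inhibitors of cathepsins, 5 had their highest median in neutrophils and Stfa3, with 426 UMIs in all, in B cells (7.03 CPM), while BC117090, with 51 UMIs, had a median of 0 in each of the 6 gates. Stfa2l1 had 1122 CPM in neutrophils as the median of 6 libraries, Gm5483 836, Stfa1 153, BC100530 54.9 and Stfa2 21. Of 12 other cystatins and inhibitors tested between macrophages and neutrophils, these 5 stefins were lower in macrophages (log2 fold changes -1.66 to -2.31). Of the 12, only 1, Cstb, was higher (0.53). Of all genes tested, 11.7% were lower and 3.15% higher. Stfa2l1, Stfa1 and Gm5483 were also lower in TIL than in PBMC macrophages (-4.71, -4.36 and -4.07), where the neutrophil genes moved in the same direction. Without both doubted libraries kidney TIL, with 37 macrophages and 24657 UMIs, stood alone against PBMC. That leaves no replicate, and the calls of these 3 did not hold. The log2 fold changes of these 3 were then -5.12, -8.12 and -10.05. With so few UMIs their sizes are uncertain, and no stronger decrease is read from them. The call of Stfa1 was lost without the library labelled liver TIL (-3.81, adjusted p = 0.0736) or heart PBMC (-2.25, adjusted p = 0.0509). That of Gm5483 was lost without the library labelled heart TIL (-3.71, adjusted p = 0.0841) or kidney TIL (-3.79, adjusted p = 0.0514). Without heart PBMC the values of Stfa2l1 and Gm5483 were -3.11 and -2.26. These genes are close copies of each other, and the authors dropped reads that aligned to several places, so that their levels are uncertain. In NK cells Ctla2b, Serpina3g and Serpinb9 exceeded their CD8+ T cell levels (1.62, 1.28 and 1.22), with adjusted p of 0.0049, 0.000152 and 0.016.

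Around these families, 31 of the 34 tested lysosome genes were higher in macrophages than in CD8+ T cells and 0 lower (median log2 fold change 1.08), led by Grn (1.97) and Psap (1.94). Of all genes tested, 26.6% were higher and 23.9% lower. Of 9 MHC class II presentation genes 7 were higher, among them Cd74 (2.38) and H2-Aa (2.27). Of 4 tested granule proteases that cathepsin C activates, Gzmb, Gzmk (-2.55) and Gzma (-1.96) were lower and Prtn3 (1.42) was higher. Between CD8+ T and B cells 19 of 34 lysosome genes were lower in CD8+ T cells, all 9 MHC class II genes were lower and 3 of 4 granule proteases higher. Of all genes, 18.9% were lower there and 9.11% higher. Between NK and CD8+ T cells 1 granule protease, Gzma, was higher in NK cells (1.64, adjusted p = 1.41e-06). There 0 of 34 lysosome genes were called in either direction, which is near the background, since 2.9% of all genes were called.

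The members were also compared with 9262 genes by the correlation of log2(CPM + 10) over 35 sums of gate and library, given as a description, since sums of a library share depth and background RNA. Ctss was most like Ctsh (Pearson's r = 0.971) and Hexa (0.954), Ctsb most like Msr1 (0.955) and Ctsc (0.954), Ctsc most like Ms4a6d (0.962), and Ctsz most like Grn (0.94). Ctsl was most like Pid1 (0.837), Apoe (0.837) and Trem2 (0.831), and Cst3 most like Lamp2 (0.9). Ctsw was most like Sh2d2a (0.928) and Il2rb (0.914), and its correlation with Cst7 was 0.807. Cst7 was most like Asf1b (0.887), Trbc1 (0.881) and Nkg7 (0.878). Ctsd, most like 2610001J05Rik (0.821), correlated with the other members at -0.15 to 0.47.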

How the data were processed

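The authors prepared Microwell-seq libraries, processed the reads with Drop-seq tools, aligned them to GRCm38 with STAR and merged UMIs of similar sequence. The study names the genome as an Ensembl-style release of GRCm38 and the annotation as GENCODE, and which GENCODE release was used is not given in the sources used here. The deposited values are raw UMI counts per gene and cell barcode (10000 barcodes per library), which were not normalized. Barcodes with 500 UMIs or more and a mitochondrial share of no more than 10% were gated by marker genes. Cells with markers of several lineages were left out as possible doublets, and no doublet caller was run. The study's own cell annotation was not used here, so names rest on rebuilt gates. Some marker genes are not reported here.

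Counts were summed per library and gate (at least 20 cells). Genes passing filterByExpr were scaled by TMM and tested with edgeR 4.0.16 (quasi-likelihood, R 4.3.3, limma 3.58.1), with Benjamini-Hochberg adjustment over all genes tested and a threshold of 0.05. Cell types were compared in 1 fit with library as a block, and TIL against PBMC without a block. DESeq2 1.42.0 was an alternative. Exact 95% intervals, computed in Python 3.11.15 with scipy 1.17.1, cover counting error only. The limit for a count of 0 is 3 UMIs. The fits were also run on simulated data with 1 common spread for all genes and no library effects. These data differ from that, so the simulation does not vouch for single calls.

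The members, gene lists, gates and tests were chosen with earlier results of these data known. Named genes were the 10 members, other cathepsins and cystatins with at least 50 UMIs, the 2 lysosome, granule protease or MHC class II genes with the largest called change in each direction, and the 3 genes most like each member, of which the text gives some. Gzma, between macrophages and CD8+ T cells, was named beyond that rule.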

Additional observations from a re-analysis of the deposited data

Results flagged for a closer look

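Ctsw was the only result picked out for a closer look, because its difference between TIL and PBMC was unequal in 2 cell types by a test of that difference itself. The log2 change in macrophages exceeded that in CD8+ T cells by 1.88 (edgeR's quasi-likelihood test, adjusted p = 0.0389). In that test the spread was shared by all genes, so this p does not measure how unequal Ctsw itself was between libraries. In macrophages the 3 TIL sums were at 122 to 156 CPM and the 3 PBMC sums at 0 to 59.1 CPM, whereas in CD8+ T cells the ranges overlapped (321 to 433 CPM in PBMC, 424 to 608 CPM in TIL). The kidney values rest on 0 UMIs in PBMC, which allow up to 148 CPM, and 3 UMIs in TIL macrophages, so that the groups are not shown to be apart at this depth. Nkg7, a gene of cytotoxic lymphocytes, moved in the macrophage sums too, from 348, 125 and 742 CPM in PBMC of heart, liver and kidney to 1095, 635 and 1257 CPM in TIL, and its part in the Ctsw values was not tested. Across the alternatives the value ranged from 0.60 to 3.59 with adjusted p from 0.0022 to 1. DESeq2 gave 1.82, close to the 1.88 of edgeR, with an adjusted p of 0.395.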

How the results depend on the processing

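The number of members called was within 1.5 times of the reported one for macrophages against CD8+ T cells under every alternative run (9 to 10 members, leaving out 1 library included), and in the tested comparisons no called member changed direction under any alternative. Of 1259 member values under alternatives, 1155 kept their side of the threshold, 53 fell short of it and 51 newly passed it. The mitochondrial filter had removed only 1 cell, of kidney TIL, and no gate changed in size without it. Values without that filter are among the 1155 and could not move. Between macrophages and neutrophils (3 members) 1 was called with overlapping gates, 5 with a second marker or 1000 UMIs per cell, and 1 to 5 when 1 library was left out. Between NK and CD8+ T cells (0) Cst3 alone, 1 member, was called at 1000 UMIs per cell, and 0 to 0 when 1 library was left out. At 1000 UMIs only liver PC (33 cells) and kidney PBMC (25 cells) kept enough NK cells for a sum. In the reported gate 1 NK cell of liver PC held 103 of its 143 Cst3 UMIs. Between CD8+ T and B cells (8) 4 were called without the filter on low counts, and 6 to 9 when 1 library was left out.

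For TIL against PBMC in macrophages (1) the count was 0 with DESeq2, 1000 UMIs, 50 cells per sum or PC counted with TIL. There Ctsl was at 1.83, 1.95, 1.95 and 1.69, against 1.84 in the reported fit, and without both doubted libraries at 0.65. The settings of 1000 UMIs and 50 cells dropped the macrophages of kidney PBMC and kidney TIL. At 1000 UMIs these had 6 and 2 cells. Both fits thus rest on the doubted libraries alone as TIL. The count was 2 without the filter, 0 to 2 when 1 library was left out, 5 with the organ block and 3 with that block exchanged. With a second marker or overlapping gates the count stayed at 1, but the member was Ctsw or Cst7 in place of Ctsl. The second marker dropped kidney PBMC, with 10 macrophages. In CD8+ T cells (0) it was 1 with DESeq2, 6 without the filter, 0 to 1 when 1 library was left out, and 6 with the organ block, as labelled or exchanged. For the unequal change (1) it was 0 with DESeq2, without the filter or without the 5% of cells with the most UMIs. There Ctsw was at 1.82, 1.74 and 1.58, against 1.88 in the reported fit, and without both doubted libraries at 0.60. The count was 2 with overlapping gates, a second marker or 50 cells, and 0 to 2 when 1 library was left out. At 1000 UMIs it stayed at 1, but Ctsd (1.31, adjusted p = 0.0153) was called in place of Ctsw (2.48, adjusted p = 0.122). The fits at 1000 UMIs and 50 cells again lacked kidney PBMC and kidney TIL, and that with a second marker lacked kidney PBMC. For Kupffer cells (Ctsb, Ctsc, Ctsd and Ctss, 4 members outside 1) overlapping gates gave 8, with Ctsc reversed from 1.16 to 0.952 and Ctsb and Ctsd no longer outside 1. Ctsd was also within its interval at 1000 UMIs (1.10) and without the cells with the most UMIs (1.02). In liver PC Ctss stayed below 1 under all 5 alternatives. Among these, leaving off the mitochondrial filter changed no cell of liver PC and could not move the value. In the library labelled heart TIL the interval of Ctss held 1 with a second marker and at 1000 UMIs. The causes were not tested. The exchanged block and the fits without both doubted libraries in the comparisons of TIL with PBMC were chosen after seeing the data, as was the Cst3 mean without 1 NK cell.

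Counts over all genes moved more. The 1603 genes between macrophages and CD8+ T cells became 3014 without the filter and 3034 with overlapping gates. The 471 between macrophages and neutrophils became 283 (overlapping gates), 859 (second marker), 199 (1000 UMIs), 225 (without heart PBMC) or 222 (without liver PBMC). The 92 between NK and CD8+ T cells became 248 (no filter), 168 (overlapping gates), 53 (1000 UMIs), 57 (without heart PBMC) or 45 (without kidney PBMC), and the 890 between CD8+ T and B cells 579 or 487 (without heart or liver PBMC). The 247 of TIL against PBMC in macrophages ran from 4 (without both doubted libraries) to 720 (overlapping gates). It was 163 with DESeq2, 450 without the filter, 92 with a second marker, 81 at 1000 UMIs, 162 without the cells with the most UMIs, and 72, 71 or 67 without the library labelled heart TIL, liver PBMC or the library labelled liver TIL. The 3 in CD8+ T cells became 147 (DESeq2), 451 (no filter), 415 (organ block), 311 (exchanged block), 36 (PC counted with TIL), 79 (without both doubted libraries), 59 (without kidney TIL), 1 (1000 UMIs) or 0 (without any 1 PBMC library). The 63 of the unequal change ran from 3 (without both doubted libraries) to 293 (overlapping gates), being 99 with RLE size factors, 13 with DESeq2, 10 without the filter, 36 at 1000 UMIs, 37 without the cells with the most UMIs, 124 with 50 cells per sum, and 13 to 97 when 1 library was left out. The kidney macrophages, 22 to 37 cells per library, limit what those sums can show.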

Other observations

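Ctsk, a cathepsin known for its role in osteoclasts, had 0 UMIs in the macrophages of 5 of 8 libraries. It was at 68.1 CPM in the library labelled liver TIL (38 UMIs), 688 CPM in kidney PC (10 UMIs in 22 cells) and 324 CPM in kidney TIL (8 UMIs in 37 cells).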
